A study of Mus musculus with 6 samples.

Results

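The nuclear genes for the subunits of respiratory chain complexes I to IV were compared between MHC class II-positive and class II-negative fibroblasts of mouse lung tumours. Members were the protein-coding genes whose symbols start with Ndufa, Ndufb, Ndufc, Ndufs or Ndufv and a number, with Uqcr, or with Cox4 to Cox8, together with Sdha to Sdhd; Cox4i2 was left out. This gave 67 of the 55298 genes in the files: 38 of complex I, 4 of complex II, 8 of complex III and 17 of complex IV. The genes were chosen by name and not by their values. Cancer-associated fibroblasts were sorted from pooled orthotopic lung tumours of wt C57BL/6 mice over 8 weeks old, in 3 independent experiments, with no treatment named. Both groups were large cells gated as CD45-, CD31-, EPCAM- and mCherry- and as positive for PDPN (spelled PDPL in the labels) and PDGFRa. They differed in the last gate, MHCII+ for the 3 libraries of apCAFs (1, 2 and 3) and MHCII- for the 3 libraries of nonapCAFs (4, 5 and 6). Because tumours were pooled, no library stands for a single animal, and the labels do not say which libraries share an experiment.

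The respiratory chain passes electrons from NADH and succinate to oxygen in the inner mitochondrial membrane and pumps protons on the way. Complex I (NADH dehydrogenase) and complex II (succinate dehydrogenase) feed ubiquinone, complex III hands the electrons to cytochrome c, and complex IV (cytochrome c oxidase) reduces oxygen. Each of these except complex II mixes subunits from mitochondrial DNA with nuclear-encoded ones, and several complex IV subunits come as a ubiquitous isoform and an isoform of muscle, testis or lung. The mitochondrially encoded subunits were not analysed here.

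Values are the authors' normalized counts, rounded to whole numbers, and sequencing depth is unknown. H2-Aa, a class II chain, had 11556, 12693 and 22115 in apCAFs and 207, 252 and 187 in nonapCAFs, as the gate implies. Of 7 fibroblast markers, all were far above 0 in every library, and 3 were called higher in apCAFs. Lum was lower in every apCAFs library, with 11026, 11304 and 8086 against 21256, 19490 and 15611. Markers of other cells also differed between the libraries. The summed value of 10 alveolar type II markers was 106658 and 89172 in apCAFs 1 and 2, 6237 in apCAFs 3 and 5941 to 6983 in nonapCAFs. For 5 mesothelial markers, 4 of them called higher, the sum was 25092 to 34672 in apCAFs and 1338 to 2182 in nonapCAFs. Leukocyte markers (0 of 7 called) summed to 500 to 670 in apCAFs and 342 to 417 in nonapCAFs, and endothelial markers (0 of 4 called) to 294 to 536 and 237 to 361. Of 5 epithelial markers, 1 was called higher, with sums of 8207 to 14047 and 7241 to 10276. The called marker was Krt19, with 3451, 3410 and 3805 in apCAFs and 205, 203 and 124 in nonapCAFs. Epcam (181, 209 and 21 against 13, 3 and 5) and Cdh1 (786, 602 and 111 against 33, 36 and 2) were also higher in every apCAFs library. For Krt8 and Krt18 the groups overlapped. Over all genes with a mean of at least 100, libraries 1 and 2, and libraries 4 and 5, formed close pairs. The SD of the log2 ratio was 0.238 between apCAFs 1 and 2, and 0.708 and 0.687 when these were set against apCAFs 3. Between nonapCAFs 4 and 5 it was 0.246, and against nonapCAFs 6 it was 0.495 and 0.479. Over the member genes at that level, the SD was 0.153 between apCAFs 1 and 2 and 0.36 to 0.375 against apCAFs 3. The members did not set nonapCAFs 4 and 5 apart, with 0.235 for 4 and 5, 0.236 for 4 and 6 and 0.271 for 5 and 6. In bulk samples, fewer cells of a type and less RNA per cell cannot be told apart.

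Subunit genes were close to level between the groups, with Ndufa4l2 as the exception that passed the test. Of the 67 members, 65 were above 0 in at least 1 library and were tested, and the testis isoforms Cox7b2 and Cox8c were 0 in all 6 libraries. Their log2 fold changes, apCAFs over nonapCAFs on the log2(value + 1) scale, had a median of 0.02, with an interquartile range of -0.10 to 0.25, beside a median of -0.04 over all 36443 genes tested. With limma and Benjamini-Hochberg adjustment over all tested genes at 0.05, 1 member was called higher in apCAFs and 0 lower. Over all genes, 4.4% were called, 3.91% higher and 0.486% lower. At an unadjusted limma p under 0.05, 6 members were higher and 2 lower, where all genes had 13.1% higher and 6.19% lower. In 14 members every apCAFs library exceeded every nonapCAFs library, and in 8 the reverse held. The shares over all tested genes were 17.1% and 15.4%. Counting those genes alone whose mean reached 100, the shares were 25.5% and 25.9%, beside 13 and 8 of 59 members. A limma fit restricted to those genes called 3 members higher (Cox6b2, Ndufa4l2 and Ndufc2) and Ndufb2 lower, where 13% of its genes were higher and 2.41% lower. The authors' deposited table, with adjusted p-values from DESeq2, calls 8 members higher (Cox6b2, Ndufa1, Ndufa2, Ndufa4l2, Ndufa5, Ndufc2, Ndufs4 and Ndufv3) and 3 lower (Ndufa10, Ndufb2 and Ndufs1) of the 62 that have one, where it calls 30.3% of genes, 20.6% higher and 9.77% lower.

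The precision of these comparisons can be read from the intervals. Of the 59 members with a mean value of at least 100, 54 (91.5%) had a 95% confidence interval that lay wholly within 1 log2 unit of 0, a range of 2-fold either way. The corresponding share of all genes at that level was 67.1%. For 55 of the 59 (93.2%), the log2 fold change itself was within 0.5 of 0, and 71.4% of all genes at that level were. Where a member did not pass the test, these intervals say how large a difference could have gone unseen.

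**Figure D1:**
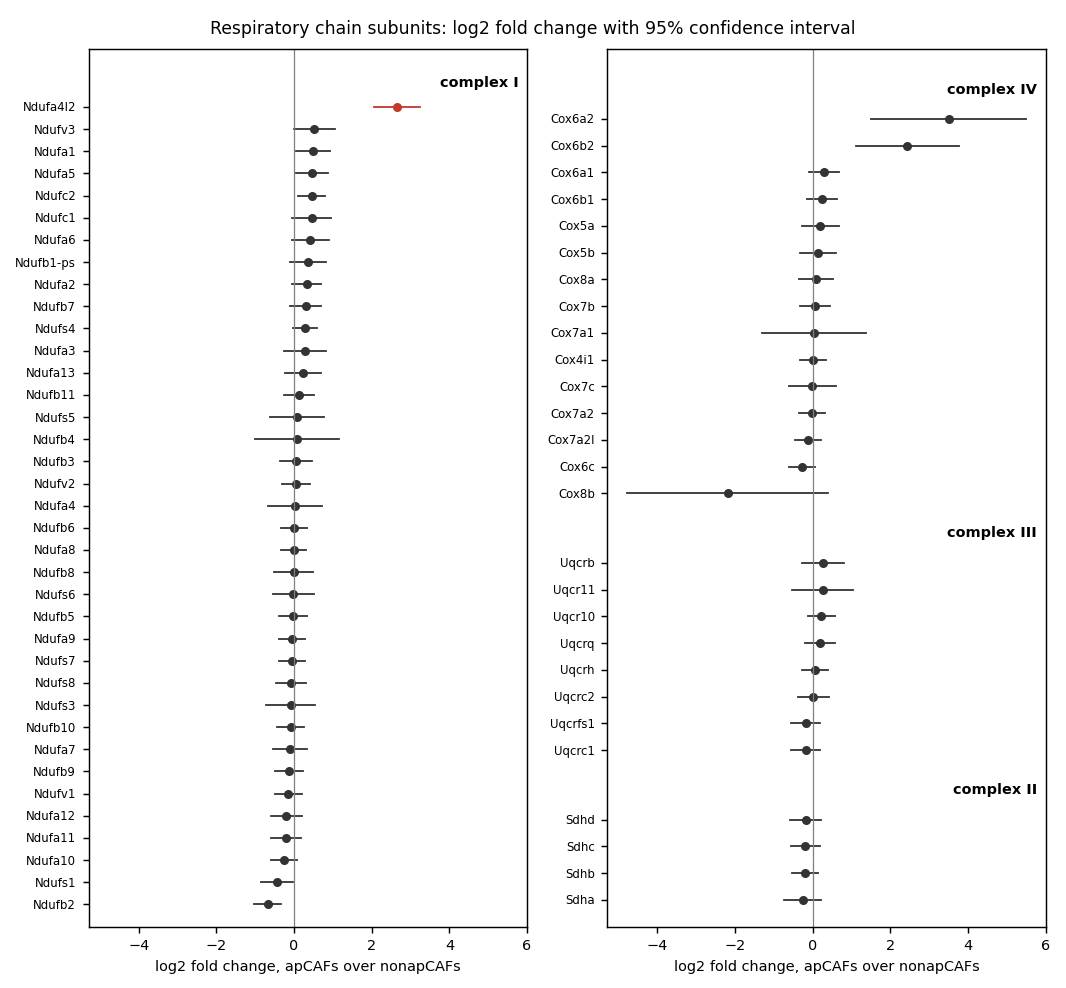
Log2 fold change (x axis, apCAFs over nonapCAFs) with its 95% confidence interval from limma for the tested subunit genes (y axis), by complex, with 1 of the 65 not drawn. Ndufa4l2, in red, was the called gene, and 54 of the 59 genes with a mean of at least 100 have intervals within 1 log2 unit of 0.

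Complex I is built around catalytic core subunits, 7 of them nuclear, that carry the flavin, the iron-sulphur clusters and the quinone site. None of the 7 was called by limma, and 1 of them (Ndufs1) had an unadjusted p under 0.05. Their median log2 fold change was -0.09, and 6 of the 7 were below 0. Of all 17829 genes with a mean of at least 100, 9760 were below 0. Ndufv1, the flavin-bearing subunit that takes electrons from NADH, had 7713, 7802 and 6677 in apCAFs and 8012, 7956 and 8683 in nonapCAFs. The groups did not overlap, with apCAFs lower, but the log2 fold change was only -0.15 (SE 0.14, limma adjusted p = 0.520). Ndufs1, the largest subunit and a carrier of iron-sulphur clusters, had 7074, 7225 and 5473 against 9068, 8982 and 8606. All apCAFs libraries lay below all nonapCAFs libraries, with apCAFs 3 the lowest (log2 fold change -0.44, SE 0.17, limma adjusted p = 0.236); the exons of Ndufs1 overlap Eef1b2 on the opposite strand.

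The other 31 complex I members are accessory subunits, which surround and stabilise the core. Their median log2 fold change was 0.07, with 19 above 0 and 12 below, and 1 was called. In 10 of them all apCAFs libraries were above all nonapCAFs libraries, and in 2 all were below, beside the 17.1% and 15.4% of all tested genes, or 25.5% and 25.9% of those with a mean of at least 100.

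Ndufa4l2 was 6.27-fold higher in apCAFs. The gene (ENSMUSG00000040280, chr10:127514967-127517154, plus strand, mm10) encodes a paralog of Ndufa4 that is known as a target of the hypoxia-inducible factor HIF-1 and as a restraint on complex I activity. Its values were 2936, 3191 and 4731 in apCAFs and 628, 585 and 487 in nonapCAFs. The lowest apCAFs library was thus far above the highest nonapCAFs library, and apCAFs 3 was the highest of all. The means were 3619 ± 971 and 567 ± 72.3 (SD, n = 3 each), the log2 fold change was 2.65 (SE 0.24, 95% interval 2.05 to 3.25) and the adjusted p from limma, fitted over all genes, was 0.0138. The authors' deposited table gives an adjusted p of 6.28e-29 for it. Without apCAFs 2 the limma adjusted p was 0.0519 at a log2 fold change of 2.72. Averaging the close pairs, apCAFs 1 with 2 and nonapCAFs 4 with 5, gave 0.194 at a log2 fold change of 2.81. In that fit 0 genes of the whole table were called. The 3' end of Ndufa4l2 overlaps that of Shmt2, on the opposite strand, by 32 bases, and reads from that stretch cannot be told apart without strand. Shmt2 itself had 10360, 10302 and 7013 in apCAFs and 13869, 12912 and 15722 in nonapCAFs, lower in every apCAFs library (log2 fold change -0.64, limma adjusted p = 0.197).

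Several marker lists also stood higher in apCAFs, and their part in its difference was not tested. It is also known as a gene of pericytes, the contractile cells along capillaries. Of the pericyte and smooth muscle markers Rgs5, Cspg4, Acta2 and Myh11, 0 of 4 were called by limma and 3 had an unadjusted p under 0.05. Their summed value was 12585 to 18493 in apCAFs and 4761 to 8548 in nonapCAFs, and none was 0 in all libraries. Most of that sum was Acta2, and Rgs5 had the opposite sign, with 13, 24 and 53 in apCAFs and 76, 31 and 227 in nonapCAFs, overlapping groups (log2 fold change -1.63). A further pericyte list, chosen after values had been seen, had 3 of 5 genes called higher (Kcnj8, Abcc9 and Notch3), with sums of 31275 to 49497 and 13330 to 16063. In that list the pericyte gene Higd1b was close to 0, at 2, 0 and 0 in apCAFs and 3, 4 and 5 in nonapCAFs. Of 8 hypoxia-inducible genes, also chosen after values had been seen, 1 was called, Car9, a carbonic anhydrase, with 1786, 1714 and 3120 against 289, 287 and 457. The others of that list ran from a log2 fold change of -0.16 for Pdk1 to 1.24 for Vegfa. The mesothelial sums given above also stood higher in all 3 apCAFs libraries. The alveolar type II surfactant gene Sftpc had 48853, 40491 and 226 in apCAFs 1, 2 and 3 and 185, 185 and 124 in nonapCAFs.

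Ndufa4, the ubiquitous paralog, is classed by its name with complex I but is known as a subunit of complex IV. Its own value was 145, 189 and 267 in apCAFs and 159, 207 and 212 in nonapCAFs, so the groups overlapped (log2 fold change 0.02, SE 0.28). Per kb of transcript, Ndufa4l2 then made up 89.8 ± 0.848% of the pair in apCAFs and 58.7 ± 6.55% in nonapCAFs (SD, n = 3 each). Ndufa4 has processed pseudogenes of nearly the same sequence, however, and those hold most of the signal: Gm14450 (chrX:5984772-5985011) had 2238, 2287 and 2707 in apCAFs and 2358, 2117 and 1863 in nonapCAFs. With its 4 copies added, Ndufa4 had 3726, 4090 and 5080 against 4072, 3714 and 3511, and the groups still overlapped. On that sum, Ndufa4l2 was 28.7 ± 2.06% of the pair in apCAFs and 6.77 ± 0.423% in nonapCAFs. The direction is the same, but which paralog is the more abundant in either group depends on the copies. The coding sequences of Ndufa4l2 and Ndufa4 are 68.2% identical, and 0 copies of Ndufa4l2 were found.

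To show how alike gene and copy are, the first 180 coding bases of Ndufa4 and the aligned bases of Gm14450 are given, from GENCODE M21 (GRCm38), 5′ to 3′, with the 11 differing positions in capitals:
Ndufa4: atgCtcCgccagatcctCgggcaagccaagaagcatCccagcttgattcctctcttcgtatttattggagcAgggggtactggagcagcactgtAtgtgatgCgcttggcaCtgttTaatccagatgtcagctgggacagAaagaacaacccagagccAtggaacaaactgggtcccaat
Gm14450: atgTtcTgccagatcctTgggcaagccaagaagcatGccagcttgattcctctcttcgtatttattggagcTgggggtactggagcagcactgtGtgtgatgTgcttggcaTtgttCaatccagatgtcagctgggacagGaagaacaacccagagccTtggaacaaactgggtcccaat

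Ndufb2 was the lowest of the complex I members. This accessory subunit of the membrane arm had 561, 637 and 545 in apCAFs and 880, 926 and 992 in nonapCAFs. No apCAFs library came near a nonapCAFs one, and the SD within each group was 49.2 and 56.3. The log2 fold change was -0.68 (SE 0.14), and the limma adjusted p of 0.0671 missed the threshold. Its copy Gm13186 had 1372, 1622 and 1250 against 1600, 1457 and 1555, with overlapping groups. Added to it, the copy took the log2 fold change to -0.31 (limma adjusted p = 0.308). The exons of Ndufb2 also overlap Braf on the opposite strand, which had 2833, 2652 and 2585 against 2838, 3264 and 2932. They overlap Gm16272 on the opposite strand and Gm42420 on the same strand as well, and the part of these genes in the Ndufb2 values was not tested.

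Ndufv3, Ndufa1, Ndufa5, Ndufc2 and Ndufc1 stood at the upper end of the remaining accessory subunits. Ndufa1, Ndufa5 and Ndufc1 had log2 fold changes of 0.49, 0.46 and 0.45, with every apCAFs library higher, and were not called by limma. Ndufv3, a small subunit of the NADH-oxidising module, had 3446, 3109 and 4687 in apCAFs and 2483, 2390 and 2879 in nonapCAFs. The groups did not overlap, with apCAFs 3 the highest (log2 fold change 0.52, SE 0.21, limma adjusted p = 0.263). Ndufc2, a membrane-arm subunit named here after its values were seen, had 1860, 1929 and 1976 against 1581, 1318 and 1336. Every apCAFs library was higher and the spread among them was small (log2 fold change 0.45, SE 0.14, limma adjusted p = 0.177). Ndufb9, the most abundant complex I member per kb (5789 normalized counts per kb over the 6 libraries), had 3892, 4302 and 3504 against 4448, 4072 and 4234. Its groups overlapped, at a log2 fold change of -0.13.

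All 4 subunits of succinate dehydrogenase, complex II, were below 0, beside 9760 of all 17829 genes with a mean of at least 100. By limma 0 of the 4 were called and 0 had an unadjusted p under 0.05. Sdha, the flavoprotein that oxidises succinate, had 18619, 18245 and 13717 in apCAFs and 21404, 20987 and 17665 in nonapCAFs. The groups overlapped, because nonapCAFs 6 lay below apCAFs 1 and 2 (log2 fold change -0.26, SE 0.19, limma adjusted p = 0.502). Sdhb, the iron-sulphur subunit, had 4980, 5684 and 5058 against 6075, 5712 and 6182. Its groups did not overlap, but apCAFs 2 and nonapCAFs 5 differed by little (log2 fold change -0.19, SE 0.13, limma adjusted p = 0.469). The membrane anchors Sdhc and Sdhd had log2 fold changes of -0.19 and -0.18, with overlapping groups for Sdhc and not for Sdhd. No copies were found for any of the 4. Sdha was the most abundant of them per kb, at 6358.

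Complex III, the cytochrome bc1 complex, had a median log2 fold change of 0.12 over its 8 members, with 0 called by limma and 0 at an unadjusted p under 0.05. Uqcrc1, a large core protein on the matrix side, had 12278, 12270 and 10066 in apCAFs and 13595, 13237 and 12338 in nonapCAFs. The apCAFs libraries were all lower, 2 of them by a small margin (log2 fold change -0.18, SE 0.15, limma adjusted p = 0.518). Uqcrfs1, the Rieske iron-sulphur protein, had 5770, 6195 and 5003 against 6721, 6329 and 6115, and the groups overlapped (log2 fold change -0.18). Uqcr10, a small subunit, had 786, 895 and 818 against 705, 670 and 763. All apCAFs libraries were higher (log2 fold change 0.22, SE 0.14, limma adjusted p = 0.411). Uqcrb, which contributes to the ubiquinone pocket, had the highest log2 fold change of the complex, 0.27, from 187, 197 and 210 against 127, 204 and 169, with overlapping groups.

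In complex IV, 12 of the 15 tested members had a log2 fold change within 0.5 of 0, and 0 were called by limma. Cox4i1, the ubiquitous regulatory subunit and the most abundant of all members per kb (18581), had 13431, 14589 and 13504 in apCAFs and 13847, 13074 and 14613 in nonapCAFs. The groups overlapped fully, and the log2 fold change was 0.00 (SE 0.13, 95% interval -0.33 to 0.33). Cox6c had the lowest log2 fold change among complex IV members with a mean of at least 100: 688, 638 and 719 against 779, 879 and 816, all apCAFs libraries lower (-0.27, SE 0.13, limma adjusted p = 0.319). With its 6 copies added it was at -0.06. Cox7a2l, which helps complex III and complex IV join into supercomplexes, had 6071, 6666 and 6146 against 7385, 6600 and 6612, with overlapping groups.

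The tissue isoforms of complex IV were compared with their ubiquitous partners. Cox6b2, the testis isoform of a subunit on the intermembrane side (chr7:4751792-4753094, minus strand), had 250, 282 and 577 in apCAFs and 73, 34 and 100 in nonapCAFs. The lowest apCAFs library was well above the highest nonapCAFs one, but the libraries within each group also differed by over 2-fold. At a log2 fold change of 2.43 (SE 0.52, 95% interval 1.11 to 3.75) the limma adjusted p was 0.0744. The authors' deposited table gives 2.25e-05. Cox6b1, its ubiquitous partner, had 907, 1126 and 957 against 900, 801 and 815, which do not overlap but lie close (log2 fold change 0.24). Per kb, Cox6b2 was 35.8 ± 11.3% of the pair in apCAFs and 11.3 ± 4.98% in nonapCAFs, and 20.6 ± 7.82% and 5.23 ± 2.26% with the copies of Cox6b1 added (SD, n = 3 each). In both counts every apCAFs library had the larger share.

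Cox6a2, the heart and skeletal muscle isoform, had 49, 28 and 8 in apCAFs and 2, 2 and 0 in nonapCAFs. The apCAFs values were low and spread over 6-fold, with apCAFs 3 the lowest (log2 fold change 3.50, SE 0.79, limma adjusted p = 0.0830). Its exons overlap Itgad on the opposite strand, which had 0, 7 and 8 against 6, 1 and 15. Cox6a1, the ubiquitous isoform, had 3423, 2977 and 3464 against 3000, 2501 and 2600, with overlapping groups, so that Cox6a2 was 0.722 ± 0.5% of the pair per kb in apCAFs and 0.0410 ± 0.036% in nonapCAFs (SD, n = 3 each). Of the other muscle isoforms, Cox7a1 had 18, 37 and 66 against 41, 23 and 44, overlapping, and Cox8b had 0, 0 and 0 against 0, 5 and 15. The values of the muscle isoforms did not share a direction. Striated muscle markers gave 1 of 8 called, myoglobin (Mb), with 478, 511 and 459 against 225, 257 and 220. The list summed to 1069 to 1169 in apCAFs and 601 to 798 in nonapCAFs, Ckm was at 1 in apCAFs 1 and at 0 elsewhere, and the part of such RNA in the Cox6a2 values was not tested. Of the ubiquitous partners, Cox7a2, Cox7b and Cox8a had log2 fold changes of -0.02, 0.06 and 0.09.

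**Figure D2:**
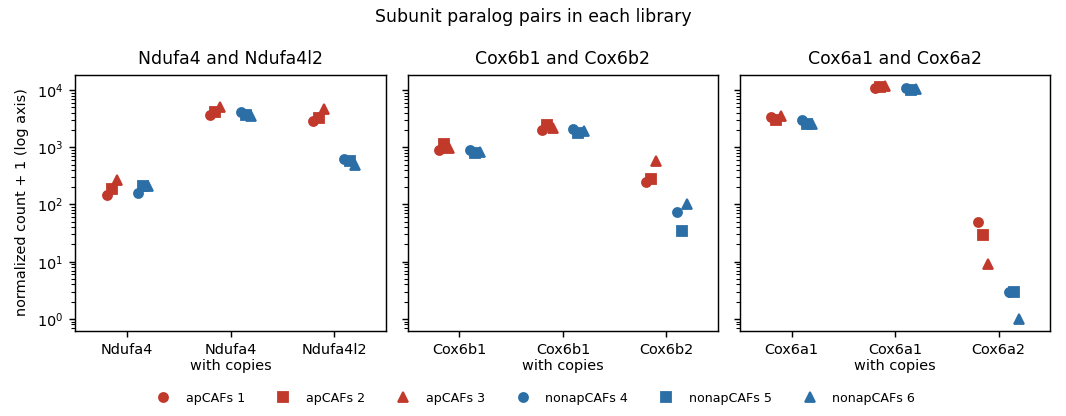
Normalized count + 1 (y axis, log scale) in each library for 3 pairs of a ubiquitous subunit and its alternative paralog, with the ubiquitous gene shown alone and with its sequence copies added. Red symbols are apCAFs and blue symbols nonapCAFs. Ndufa4l2, Cox6b2 and Cox6a2 separate the groups without overlap, and by small margins so do Cox6b1 alone and Cox6a1 with copies. Ndufa4, with or without copies, does not.

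Summed over each complex, the group means differed by less than the range of the libraries in either group, except in complex II. Complex I summed to 83570, 86380 and 82522 in apCAFs and 84820, 80065 and 82889 in nonapCAFs, a ratio of means of 1.02. The ratio was 0.947 for complex III and 1.02 for complex IV, with overlapping groups in each. Complex II summed to 36971, 38610 and 30297 against 42913, 41618 and 38352, a ratio of 0.862. Its groups overlapped only in that apCAFs 2 exceeded nonapCAFs 6, and apCAFs 3 was the lowest. Over all 67 genes the ratio was 0.972, and 0.984 with copies added.

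**Figure D3:**
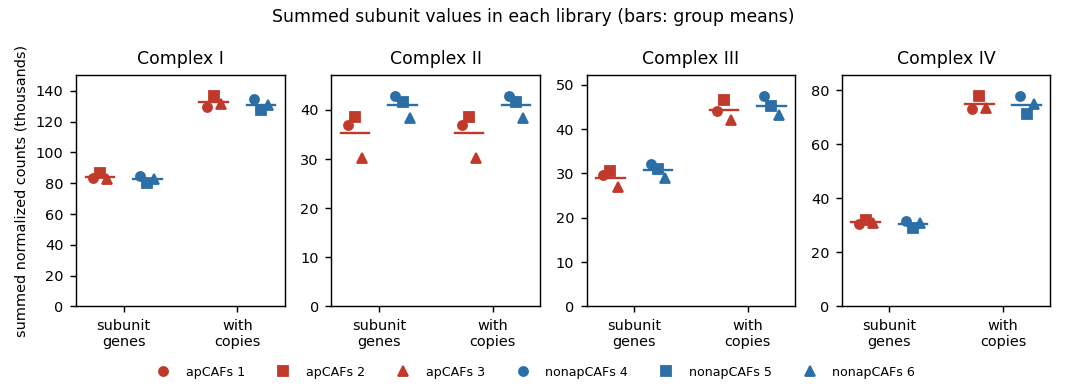
Sum of the normalized counts of the subunit genes (y axis, divided by 1000) in each library, for complexes I to IV, alone and with the values of their sequence copies added. Horizontal bars are group means (n = 3); the groups overlap in every panel, with complex II lowest in apCAFs relative to nonapCAFs at a ratio of 0.862.

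For many small subunits the gene carries only a minor part of the signal that its sequence receives. A search of each longest coding sequence against all GENCODE M21 transcripts found 95 copies of 39 members, defined as pseudogenes or single-exon genes with at least 80% identity over at least 50% of the coding sequence; 94 are annotated as pseudogenes and 91 have 1 exon. All 95 have a row in the files, and 49 had a mean value over 100. The copies held more than 50% of the sum of gene and copies for 29 of the 39 members, and more than 90% for 10. Cox5b had a mean of 424 over the 6 libraries, and its single-exon copy Gm11273 had 7377. Ndufs6 had 66.3 against 1854 for Ndufs6b, and Uqcr11 had 69.2 against 2334 for Gm16418. Cox7c, a small hydrophobic subunit of complex IV, had 661 against 5144 for Gm12338 (chr11:75599763-75599954), whose sequence equals its coding sequence over all 189 bases. A read from within these bases belongs to either place, and the first 180 of them are shown for that reason, in lower case throughout because no base differs between the gene and the copy:
Cox7c and Gm12338: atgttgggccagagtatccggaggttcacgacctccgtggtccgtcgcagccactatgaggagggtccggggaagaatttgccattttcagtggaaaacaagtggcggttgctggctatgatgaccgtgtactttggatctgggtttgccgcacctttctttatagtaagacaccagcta

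Adding the copies brought the levels of the subunits closer together, and the same gene was called. For the 39 members with copies, the median level per kb was 984 alone and 5495 with copies, and the SD of the log2 levels went from 1.78 to 1.05. For the 24 members without copies and with a mean of at least 10, the median was 3004. The fit on sums of gene and copies again called 1 member, Ndufa4l2. The log2 fold change was closer to 0 with copies than without in 24 of the 39, and the median of its size went from 0.183 to 0.130. Which of gene and copy a read was assigned to was decided upstream, by steps whose settings none of these sources give, and the share of each that was transcribed was not tested. Apart from copies, the exons of 23 of the 67 members overlap those of another gene, 3 of them on the same strand, and the strand setting of the counting is not known from these sources.

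**Figure D4:**
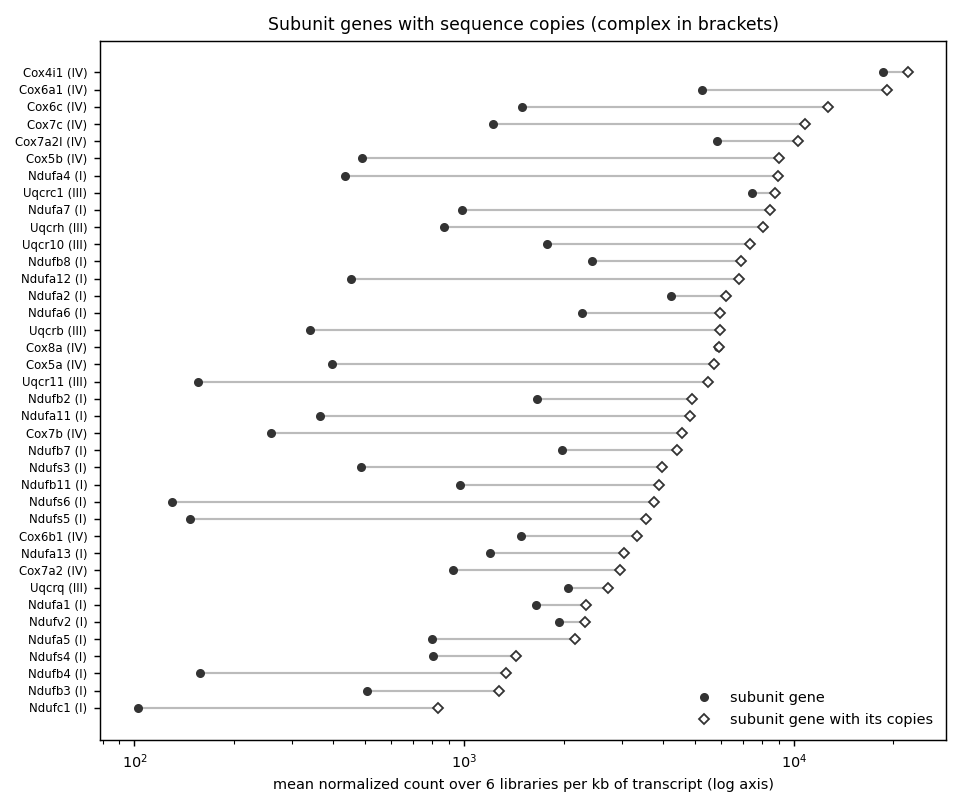
Mean normalized count over the 6 libraries per kb of transcript (x axis, log scale) for the subunit genes that have sequence copies (y axis, complex in brackets; 1 of the 39 not drawn), for the gene alone (filled circles) and with its copies added (open diamonds). The median over all 39 moves from 984 to 5495, and genes with low own values, such as Uqcr11 and Ndufs6, move far.

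Factors known to regulate respiratory chain genes include NRF1, the ETS factor GABP and YY1. RefSeq promoters (GRCm38.p6; 250 bases before to 50 after the start) were at hand for 53 of the 67 members, 55 promoters in all, beside 32851 promoters of all genes, non-coding ones included. Both strands were searched. The NRF1 letters CGCANGCG were in 18 of the 55 (32.7%) and in 8.21% of all promoters. The stricter CGCATGCG, a special case of it, was in 5 (9.09%) and 1.87%. The ETS letters CCGGAAG were in 11 (20.0%) and 8.86%, and the YY1 letters AAGATGGCG in 5 (9.09%), all of complex I, and 1.40%. The core letters of the hypoxia response element, ACGTG, were in 12 (21.8%) and 19.6%. Ndufa4l2 was not among the 53 members with a promoter at hand, so its promoter was not searched for any of these letters. Such matches are a description of sequence, not of binding. The genes for these factors were near level: Nrf1 had 3267, 3501 and 2857 in apCAFs and 3969, 3870 and 3654 in nonapCAFs (log2 fold change -0.26, limma adjusted p = 0.367), and Yy1 had 13114, 11907 and 11915 against 13688, 13617 and 13640 (-0.15). Both were lower in every apCAFs library, and neither was called. The GABP genes Gabpa and Gabpb1 had log2 fold changes of -0.15 and -0.07 with overlapping groups, and were not called either.

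As an example of a ubiquitous subunit beside a tissue isoform, the 250 bases upstream of the RefSeq starts of Cox6a1 (chr5:115348959-115349208, minus strand) and Cox6b2 (chr7:4753095-4753344, minus strand) are given 5′ to 3′ along the gene, with matches to any of the motifs in capitals. Cox6a1 has CGCATGCG, a second match to CGCANGCG and an ETS match on the other strand, and Cox6b2 has none of the motif letters in this window:
Cox6a1: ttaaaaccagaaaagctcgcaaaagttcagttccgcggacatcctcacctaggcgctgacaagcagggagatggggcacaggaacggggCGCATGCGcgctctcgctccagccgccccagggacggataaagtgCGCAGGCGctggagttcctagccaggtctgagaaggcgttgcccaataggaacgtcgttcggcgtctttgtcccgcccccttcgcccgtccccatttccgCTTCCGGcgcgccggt
Cox6b2: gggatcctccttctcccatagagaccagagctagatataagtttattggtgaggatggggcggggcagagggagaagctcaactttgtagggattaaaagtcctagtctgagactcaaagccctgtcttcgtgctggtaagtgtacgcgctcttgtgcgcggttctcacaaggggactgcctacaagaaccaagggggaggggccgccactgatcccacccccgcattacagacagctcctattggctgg

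Genes around the respiratory chain were read from the same fit, in 6 lists. None of them had a called member, and at an unadjusted limma p under 0.05 there were 2 higher and 3 lower of 46 assembly factors, 1 higher and 1 lower of 14 carrier genes, 4 lower of 15 regulators, 1 higher of 3 further subunits and 0 of the ATP synthase and citrate cycle genes. The shares over all tested genes were 13.1% higher and 6.19% lower. Of 3 subunit genes that the naming rule leaves out, Cyc1, the cytochrome c1 of complex III, had 9165, 9214 and 7794 in apCAFs and 11249, 10800 and 11081 in nonapCAFs, all apCAFs libraries lower (log2 fold change -0.34, SE 0.14, limma adjusted p = 0.266). Ndufab1, the mitochondrial acyl carrier protein, had overlapping groups (-0.13). Cox4i2, the lung isoform of Cox4i1, which is known to respond to low oxygen, had 75, 46 and 101 against 22, 36 and 40, all apCAFs libraries higher (log2 fold change 1.13, SE 0.38, limma adjusted p = 0.198). The 19 ATP synthase genes had a median of -0.08, and Atp5a1 and Atp5b, subunits of the F1 part, were at -0.22 and -0.21. The 46 assembly factors had a median of -0.11, with 30 below 0, beside 9760 of all 17829 genes with a mean of at least 100. In 14 of them all apCAFs libraries were lower and in 4 all were higher, beside 25.9% and 25.5% of all genes with a mean of at least 100. The authors' deposited table calls 5 assembly factors lower and 1 higher, 2 carrier genes lower and 1 higher, 4 regulators lower and, of the further subunits, Cyc1 lower. Over all genes with an adjusted p, that table calls 9.77% lower and 20.6% higher. Among the most abundant assembly factors, Coa5, of complex IV, was at -0.38. Lrpprc, which stabilises mitochondrial messenger RNA, had 6769, 6545 and 3614 against 8802, 8844 and 8334 (-0.67, SE 0.28, limma adjusted p = 0.281). Of 14 genes for cytochrome c, electron transfer flavoprotein and ubiquinone synthesis the median was -0.14, with Etfb at 0.35 and Etfdh at 0.05.

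The transcription and replication factors and the citrate cycle enzymes lay mostly below 0. Of all 17829 genes with a mean of at least 100, 9760 were below 0, with a median of -0.05. Of 15 regulators, 13 were below 0, with a median of -0.26. Myc, the most abundant of them, had 60600, 57525 and 14571 in apCAFs and 84159, 84279 and 36918 in nonapCAFs. Its values separated apCAFs 3 and nonapCAFs 6 from the rest more than they separated the groups (log2 fold change -0.79, SE 0.69). Of 17 citrate cycle and pyruvate dehydrogenase genes, 15 were below 0, with a median of -0.17. Ogdh and Dlst, both of the oxoglutarate dehydrogenase complex, were at -0.12 and -0.19. Other scalings move the zero point of all these values. With library totals, upper quartiles, quantiles or medians in place of the authors' scaling, the median of all genes was -0.18, -0.15, -0.19 and -0.14, and the median of the subunit genes stood 0.06 above it in each.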

How the data were processed

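RNA was purified with a Norgen Single Cell RNA Purification Kit and libraries were made with a NEB Next Ultra RNA Library Prep Kit, per the labels. The authors used Trim Galore, Bowtie2, DESeq2 and the mm10 build, per the submitters' processing notes, in roles and versions that are not listed. Which counter, annotation and strand setting they used is not given in the sources used here. The deposited values are, per the file headers, counts normalized between libraries by the authors, which the values show to be rounded to whole numbers and which were treated as a score, not as raw counts. Their totals of 77960347 to 93330791 are not depths. In the authors' deposited table, the headers name a p-value and its adjusted form, both by DESeq2, then the fold change (a ratio) and the log2 of it. Its GC percent, also deposited, was not used.

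The 2 groups were compared with limma 3.58.1 (R 4.3.3) on log2(value + 1), without other terms, over the 36443 genes that were not 0 throughout, with Benjamini-Hochberg adjustment over all of them and calls at 0.05. The design had foreseen raw counts or this fallback. P-values are two-sided and measure the spread between libraries, which may in part be technical. The fit was tested on simulated data. All 67 members were found in GENCODE M21 at the coordinates of the files; lengths are of the transcript with the longest coding sequence, which 66 have. The NRF1 letters are the inner bases of its palindrome, chosen after a longer form had been searched. Copies were searched with blastn 2.17.0, with limits of 80% identity and 50% coverage chosen after seeing the data; of copies that matched several members, each was given to the closest. The members and lists were chosen with earlier results of these data known. Named genes are the called members; per complex the 2 highest and 2 lowest with a mean of at least 100 and the most abundant per kb; paralog pairs; catalytic core subunits; and the 2 most abundant genes of other lists without calls. 1 gene that this rule names is not reported here. Genes outside that rule, such as Ndufc2, examples of copies, overlapping genes, markers, Nrf1 and Cox4i2, were picked after their values were seen. Alternatives were other pseudocounts, filters, scalings, a variance trend, libraries left out, close pairs averaged, copies added and the authors' DESeq2 values.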

Additional observations from a re-analysis of the deposited data

How the results depend on the processing

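No paired analysis was possible because the groups share no replicate numbers (1 to 3 in apCAFs, 4 to 6 in nonapCAFs). The count of subunit genes called higher in apCAFs was 1 with the reported fit. It was 2 with a pseudocount of 10 and 2 without both apCAFs 3 and nonapCAFs 6, 3 on genes with a mean of at least 10 and 3 on those with at least 100, 4 with a variance trend, 8 in the authors' deposited table and 0 with the close pairs averaged; leaving out single libraries gave 0 to 1, with 0 only without apCAFs 2. The count called lower was 0. It was 1, Ndufb2, with a pseudocount of 10, on genes with a mean of at least 10 or at least 100, on quantile-normalized values and with a variance trend, 3 in the authors' deposited table, and 0 to 0 with single libraries left out. The genes added on the higher side were drawn from Cox6b2, Cox6a2 and Ndufc2 in the limma fits. Filters change how many genes the adjustment covers; other causes were not tested. Over all genes the limma count ran from 0 with the pairs averaged to 3453 with a variance trend, against 1602. The share of all genes called higher was 3.91% with the reported fit, 13% on genes with a mean of at least 100 and 20.6% in the authors' deposited table. The shares called lower were 0.486%, 2.41% and 9.77%. The member counts above are to be read beside such shares, which are not given here for the other alternatives. The median log2 fold change of the subunit genes, 0.02, was -0.13 with library totals, -0.092 with upper quartiles, -0.13 on quantiles and -0.072 on medians, and -0.02 to 0.06 with single libraries left out. None of the values of named genes under these alternatives reversed a call. Of 753 such values, 670 kept direction and side of the threshold, 19 passed it where the reported fit had not, and 2 lost it (both Ndufa4l2). The remaining 62 were not among those that kept direction and side, and were classed as moved. The yardstick for that class was the spread of the library medians, 0.0467 on the log2 scale, which is not the spread of a gene between libraries. Depth is unknown, so no counting error can be given for the low values of Cox6a2, Cox8b and Cox7a1. Of the whole numbers from 1 to 30, 8 never occurred as a value in apCAFs 3 and 3 never in apCAFs 2. In the other libraries all of them occurred. Low values of apCAFs 3 and apCAFs 2 are thus coarser, and what this says of their depth was not tested.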

Other observations

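Over 58 subunit genes with a known length and a mean of at least 100, the log2 ratio of apCAFs 3 to the mean of apCAFs 1 and 2 had a Pearson r of -0.36 and a Spearman rho of -0.37 with transcript length, so that shorter genes tended to be higher in apCAFs 3. The same ratio of nonapCAFs 6 to nonapCAFs 4 and 5 gave -0.23 and -0.18. The log2 fold change of apCAFs over nonapCAFs itself gave -0.23 and -0.28 over these 58 genes. The part of length in the group differences was not tested. These are descriptions across genes that share the same libraries, and genes are not independent replicates. Ubiquinone and cytochrome c genes, picked here after their values were seen, included the extremes of their list: Coq8a, a kinase-like ubiquinone synthesis protein, had 534, 502 and 758 in apCAFs and 373, 372 and 497 in nonapCAFs (log2 fold change 0.52, limma adjusted p = 0.296), and Pdss1, which makes the ubiquinone side chain, had 1066, 980 and 628 against 1297, 1536 and 1476 (log2 fold change -0.72, limma adjusted p = 0.203). In both the groups did not overlap, and neither passed the threshold.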
